A study of Mus musculus with 5 samples.

Results

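The genes described here are 9 members of the quiescence and stemness program of T cells: Tcf7, Lef1, Klf2, S1pr1, Il7r, Satb1, Id3, Bach2 and Foxo1. They were taken by symbol from the 27998 genes of 1 single-cell count table, and each was found there. The table holds mouse immune cells sorted as live CD45+ cells from the tumour, the tumour-draining lymph node (dLN) and a non-draining node (non-dLN) of 3 mice. Mouse 1 received nivolumab_mIgG1_D265A, mouse 2 received nivolumab_mIgG1 and mouse 3 received MOPC21, an isotype control antibody. Nivolumab is an antibody against the receptor PD-1, and D265A is an exchange in its Fc part. The mouse strain, the tumour line and the ages are not given in the sources used here. Cells of the 9 mouse and site combinations carried hashtag antibodies and were run as 1 pool of 4 gene expression libraries, and neither the labels nor the table tie a hashtag to a mouse and a site. The hashtag populations are therefore numbered 1 to 9 by tag and belong to no group. There is 1 mouse per antibody, so no test was run. All intervals are 95% and cover counting error only, and comparisons are between kinds of cells, pooled and within populations.

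T cells that have not met antigen are kept small, slowly dividing and recirculating by a set of transcription factors, and much of this program is lost when they become effector cells. Tcf7 encodes TCF-1, which with its relative LEF-1 guides T cell development and keeps naive and stem-like T cells able to renew. Foxo1, held out of the nucleus when AKT is active, drives Klf2 and Il7r in mouse T cells. Klf2 in turn drives S1pr1, the receptor for sphingosine 1-phosphate that lets lymphocytes leave lymph nodes, and Il7r encodes the alpha chain of the receptor for the survival cytokine IL-7. Bach2 is a repressor that restrains effector differentiation, Satb1 organises chromatin in lymphocytes, and Id3 blocks E proteins and is found in memory precursor and follicular helper T cells.

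Promoters of 3 transcription factors with large differences below are shown as the DNA context of these genes. RefSeq promoter sequences (build GRCm38.p6, each 300 bases around a start site) were matched by symbol for 8 of the 9 genes, with 16 start sites in all. Capitals mark the letters searched on both strands: CACCC or GGGTG (the core bound by KLF factors), TGTTTAC or GTAAACA (FOXO) and CTTTGA or TCAAAG (TCF and LEF), and no printed match overlaps another. The Tcf7 stretch, the second of 2 start sites, is chr11:52282546-52282845 on the minus strand. The Klf2 stretch is chr8:72318812-72319111 on the plus strand, and the Lef1 stretch, the last of 4 start sites, is chr3:131156044-131156343 on the plus strand.
Tcf7: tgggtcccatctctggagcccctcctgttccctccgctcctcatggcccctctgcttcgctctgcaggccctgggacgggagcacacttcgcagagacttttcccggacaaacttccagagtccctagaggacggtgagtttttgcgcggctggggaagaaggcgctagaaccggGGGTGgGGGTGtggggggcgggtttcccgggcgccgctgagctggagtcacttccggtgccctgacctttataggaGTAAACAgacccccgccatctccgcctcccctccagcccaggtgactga
Klf2: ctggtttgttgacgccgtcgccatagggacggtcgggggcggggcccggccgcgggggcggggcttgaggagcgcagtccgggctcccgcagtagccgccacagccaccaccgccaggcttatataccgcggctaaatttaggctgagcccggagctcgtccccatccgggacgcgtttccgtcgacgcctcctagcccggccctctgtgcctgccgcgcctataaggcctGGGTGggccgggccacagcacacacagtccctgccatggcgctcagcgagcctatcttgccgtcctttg
Lef1: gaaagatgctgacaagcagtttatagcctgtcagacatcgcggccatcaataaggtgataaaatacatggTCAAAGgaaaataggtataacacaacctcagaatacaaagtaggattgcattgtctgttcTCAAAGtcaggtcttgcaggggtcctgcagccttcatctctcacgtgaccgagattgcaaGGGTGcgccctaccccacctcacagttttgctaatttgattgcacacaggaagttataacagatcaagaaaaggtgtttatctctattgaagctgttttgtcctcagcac
The Tcf7 stretch held 1 FOXO match, found in 3.65% of all 32851 promoters of this length, and 2 KLF core matches, found in 57.5%. This Lef1 start held 2 TCF and LEF core matches, found in 16.0% of promoters, and 1 KLF core match, and Klf2 held 1 KLF core match. Outside these 3 stretches, the only other match to FOXO or to TCF and LEF letters among the 16 was 1 TCF and LEF core in Bach2. The printed Tcf7 and Lef1 starts are thus the ones of these genes that hold such matches. With 16 start sites searched, the shares of single promoters do not measure how rare these matches are. A match is a description of letters and not evidence of binding. In the GENCODE vM21 annotation (GRCm38) Tcf7 (ENSMUSG00000000782) lies at chr11:52252371-52283014 on the minus strand, Klf2 (ENSMUSG00000055148) at chr8:72319033-72321656 and Lef1 (ENSMUSG00000027985) at chr3:131110471-131224356, both on the plus strand. On the plus strand lie also Foxo1 (ENSMUSG00000044167, chr3:52268336-52353221), Id3 (ENSMUSG00000007872, chr4:136143497-136145755) and Bach2 (ENSMUSG00000040270, chr4:32238804-32586108). On the minus strand lie S1pr1 (ENSMUSG00000045092, chr3:115710433-115715072), Il7r (ENSMUSG00000003882, chr15:9505788-9530176) and Satb1 (ENSMUSG00000023927, chr17:51736187-51833290). All 9 are protein-coding genes.

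After the stated filters 21531 cells remained, and 21094 had a hashtag and were no called doublet. Populations held 2051 to 2550 cells each and 9082690 to 31322375 gene UMIs (unique molecular identifiers, one per captured RNA molecule), with median UMIs per cell of 3374 to 10662. Cells were sorted into kinds by gates, fixed rules on UMIs of marker genes that include none of the 9 genes. T cells needed at least 2 UMIs of Cd3d, Cd3e and Cd3g and at most 1 of the B cell and of the myeloid markers. CD8 T cells were called activated with at least 3 UMIs of Pdcd1, Lag3, Havcr2, Gzmb, Gzmk and Cxcr6, and naive with none of these, at most 1 of Il2rb, Cxcr3, Ccl5, Nkg7 and Cd44 and a UMI of a naive T cell marker, Ccr7 among them. Memory-like CD8 T cells had at least 2 UMIs of the 5 genes listed after Cxcr6, Il2rb to Cd44, at most 2 of the 6 activation genes, and a UMI of a naive T cell marker. Among CD4 T cells, Tregs (regulatory T cells) had a Foxp3 UMI, and activated cells at least 3 UMIs of Pdcd1, Tnfrsf4, Icos, Tigit, Lag3, Cxcr6 and Cd44. The gates held 1261 activated, 1988 memory-like and 640 naive CD8 T cells, 391 activated CD4 T cells, 211 Tregs, 1112 naive CD4 T cells, 435 NK cells, 6289 B cells and 3009 myeloid cells. Of the memory-like cells, 96.9% had a Nkg7 UMI and 16.2% a Cd44 UMI, against 37.8% and 2.03% of naive CD8 T cells, so this gate rests mainly on Nkg7. Dapl1 and Igfbp4, genes of naive T cells that no gate used, summed to 565 CPM (counts per 1000000 gene UMIs of the cells summed) in naive CD8 and 876 CPM in naive CD4 T cells, and to 30.5 CPM in activated CD8 T cells. In memory-like CD8 T cells they summed to 613 CPM, so they did not set this gate apart from naive CD8 T cells. Memory-like cells were also deeper, with a median of 5037.5 UMIs per cell against 3868 in naive CD8 T cells.

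The 9 genes did not share 1 order over the kinds of cells. Lef1 was highest in the naive and memory-like gates and Tcf7 in these and in activated CD4 T cells, and both were at most 10.97 CPM in B cells and myeloid cells. Tcf7 had 477 CPM in naive CD4, 428 in activated CD4, 413 in naive CD8 and 372 in memory-like CD8 T cells, then 114 in Tregs, 94.7 in NK cells and 35.0 in activated CD8 T cells, and 4.71 CPM in B and 1.69 in myeloid cells. Activated CD4 and naive CD8 T cells are neighbours in that order whose interval of the ratio holds 1, as are Tregs and NK cells. Lef1 followed a like order, with 766 CPM in naive CD4, 608 in naive CD8, 535 in memory-like CD8 and 304 in activated CD4 T cells, and with 166 in Tregs, 62.2 in NK, 52.2 in activated CD8, 10.97 in B and 1.86 in myeloid cells. Thus activated CD4 T cells stood next to naive cells for Tcf7 and below them for Lef1.

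Klf2, by contrast, was as high in B cells as in naive T cells, with 1238 CPM against 1289 in naive CD8 and 1257 in naive CD4 T cells, and was lowest in activated CD8 T cells at 65.8 CPM. S1pr1 had 360 CPM in naive CD4, 260 in naive CD8, 208 in memory-like CD8 and 156 in activated CD4 T cells, 102 in Tregs, 74.3 in B cells, and 8.62 and 5.53 in activated CD8 T and NK cells, whose ratio has an interval that holds 1. Il7r ran at 354 to 393 CPM in the naive and memory-like gates, at 196 in activated CD4 T cells, 157 in Tregs and 149 in activated CD8 T cells, and at 70.3 in myeloid, 43.2 in NK and 6.81 CPM in B cells. Satb1 was measured at 682 CPM in naive CD4 and 548 in naive CD8 T cells, and lay between 157 and 365 CPM in activated T cells, Tregs, NK cells and B cells, against 3.55 in myeloid cells. Bach2 was highest in B cells, at 671 CPM, ahead of 480 in naive CD4 T cells, and Id3 too, at 106 CPM, against 46.5 to 56.2 CPM in the naive, memory-like, activated CD4 and Treg gates, 7.46 in activated CD8 T and 1.38 in NK cells. Foxo1 spanned the narrowest fold range of the 9 genes over the lymphocyte gates, from 85.0 CPM in NK cells to 287 in B cells.

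**Figure D1:**
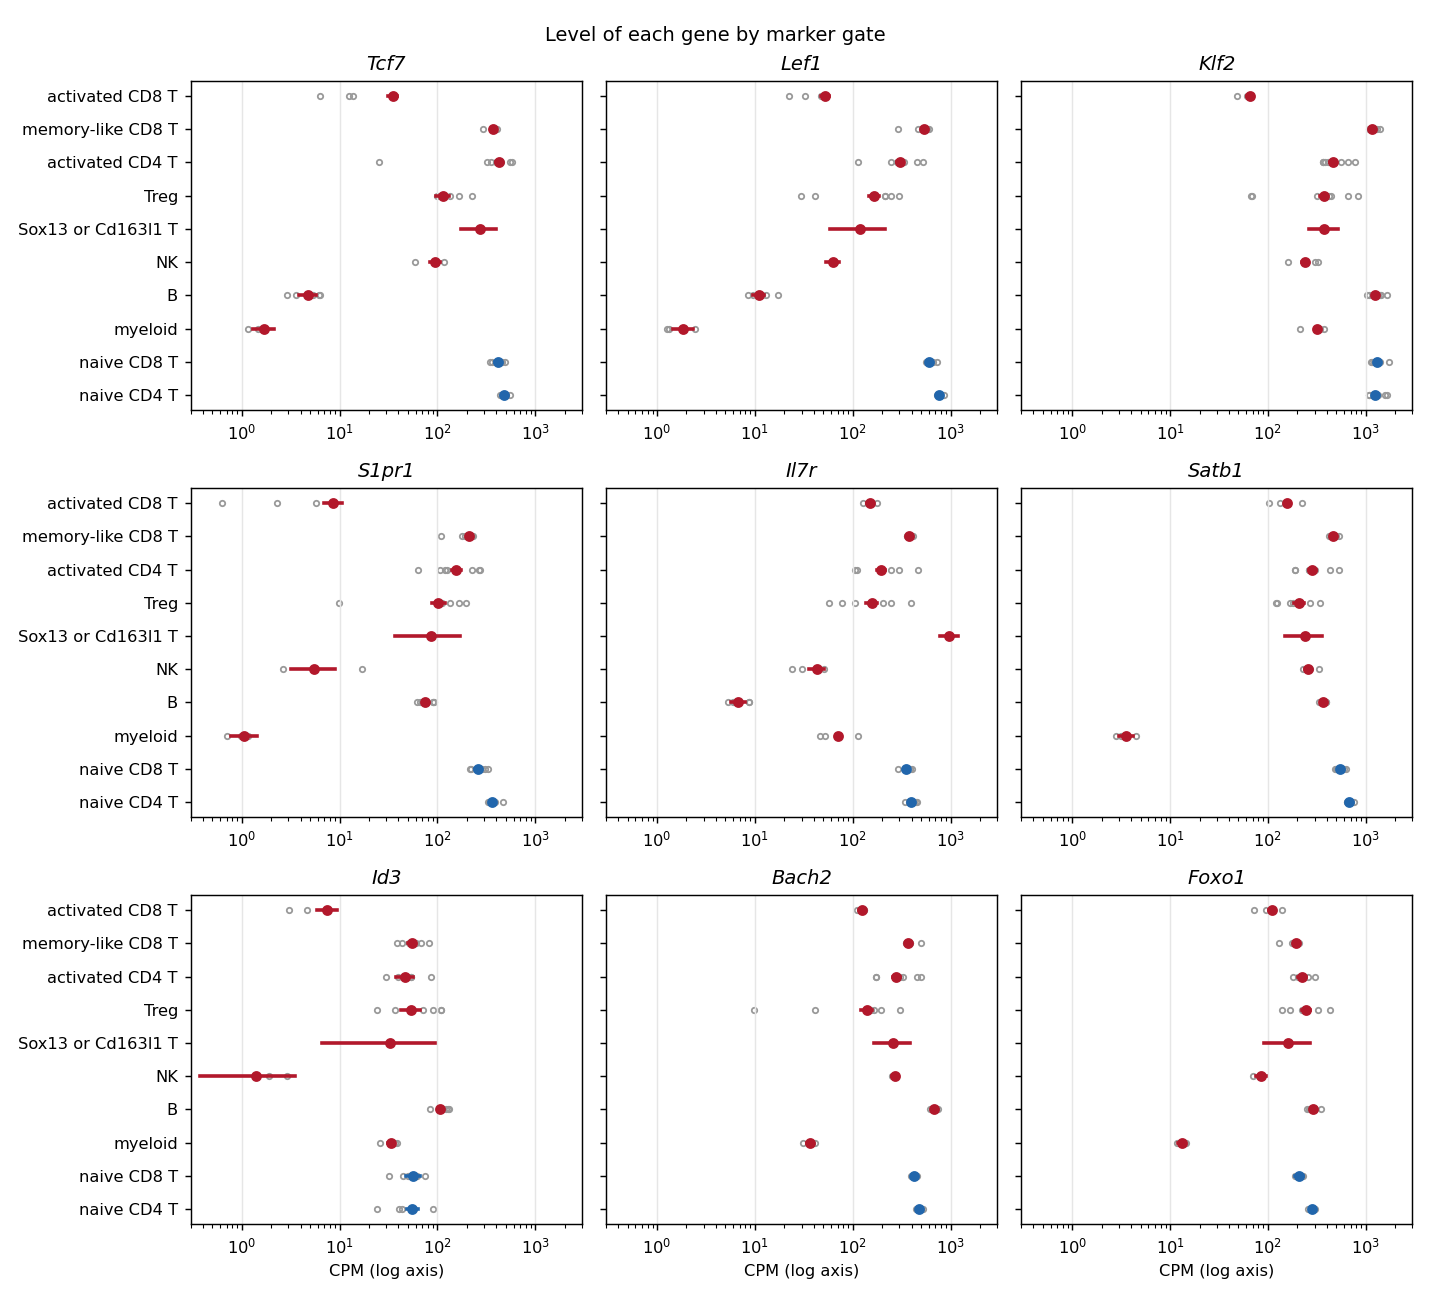
Level of each of the 9 genes in CPM (log axis) in 10 gates; filled points are cells of all populations pooled, with exact Poisson 95% intervals, in blue for the naive gates, and open circles are single populations with at least 20 cells of that gate (values of 0 are not drawn). Klf2, Satb1, Bach2, Id3 and Foxo1 reach T cell levels in B cells, while Tcf7, Lef1 and Il7r stay at 4.71, 10.97 and 6.81 CPM there.

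Activated CD8 T cells had far less of this program than naive CD8 T cells. Pooled over populations, 8 of the 9 genes were counted as lower in activated cells, which means at least 50 UMIs in both gates together, a ratio of at most 0.5 and an interval without 1. Over all 9498 genes measured, 8.21% met that rule. The members' median log2 ratio was -2.91, and the median over all genes 0.11. S1pr1 had 8.62 CPM in activated and 260 CPM in naive cells, 30.2-fold lower (interval of the ratio 0.0260 to 0.0417), and its driver Klf2 had 65.8 against 1289 CPM, 19.6-fold lower (0.0468 to 0.0556). The pair of HMG-box factors moved alike, Tcf7 to 35.0 against 413 CPM (11.8-fold lower) and Lef1 to 52.2 against 608 CPM (11.7-fold lower). Id3 was 7.53-fold lower, Satb1 3.48-fold, Bach2 3.43-fold and Il7r 2.37-fold, and the ratio of Foxo1, 0.525 (0.472 to 0.585), did not reach 0.5.

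Activated cells held more RNA, with a median of 6691 UMIs per cell against 3868 in naive cells, so the scale matters for the smaller differences. With UMIs per cell, 5 of 9 were counted as lower (Tcf7, Lef1, Klf2, S1pr1 and Id3), against 1.93% of all genes. An activated cell held 0.264 Tcf7 UMIs on average and a naive cell 1.61. For Foxo1 the ratio per cell was 1.02, for Il7r 0.817, for Bach2 0.566 and for Satb1 0.557. Tcf7, Lef1, Klf2, S1pr1 and Id3 thus met the rule on both scales, and Il7r, Bach2 and Satb1 only as a share of the RNA. Per cell these last genes were still lower, with intervals below 1 but ratios above 0.5. The intervals were 0.7504 to 0.8893 for Il7r, 0.5201 to 0.6151 for Bach2 and 0.5173 to 0.5998 for Satb1. That of Foxo1, 0.9152 to 1.134, holds 1. Activated CD8 T cells also had 1019 CPM of 4 NK cell genes (Klre1, Klra8, Gzma and Eomes), against 18.1 CPM in naive CD8 T cells and 4157 CPM in NK cells. The sum ran from 212 to 2479 CPM over populations with at least 20 activated cells. It came mostly from Gzma (812 CPM) and Klre1 (190 CPM), while Klra8 had 0.420 CPM, against 1.20 in naive CD8 T cells and 374 in NK cells. The part of these in the result was not tested.

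**Figure D2:**
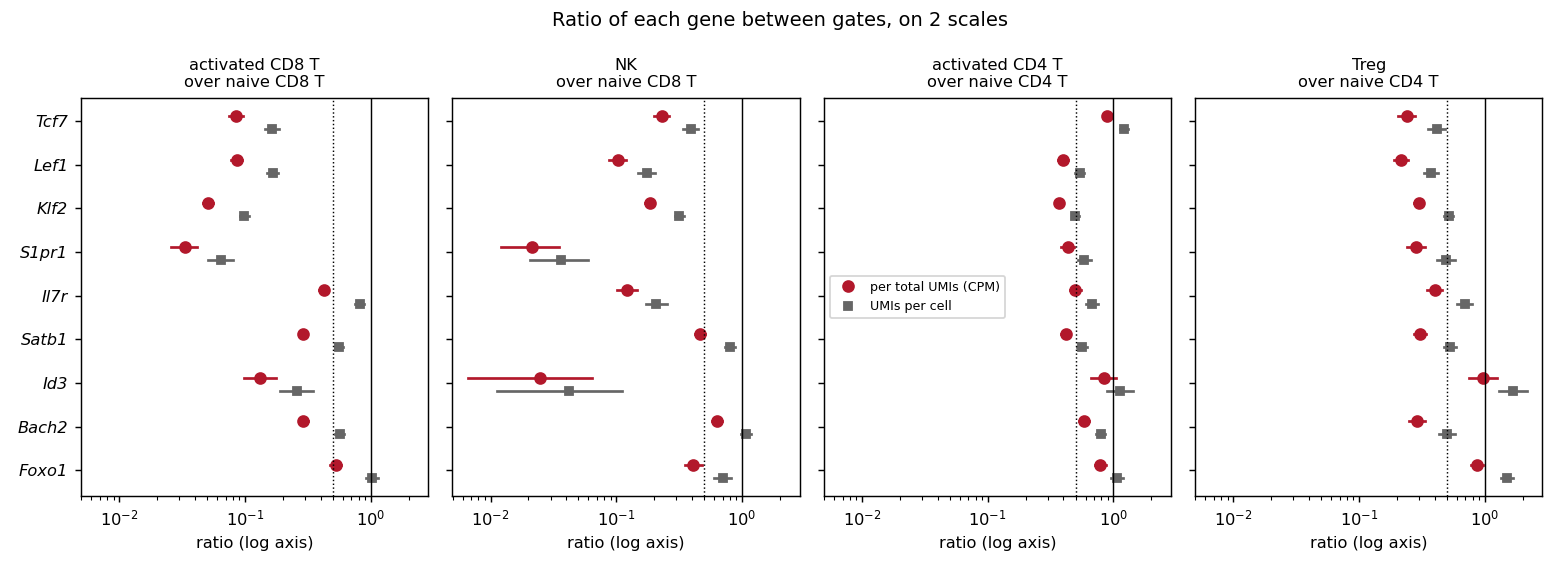
Ratio of each gene (log axis) for activated CD8 T and NK cells over naive CD8 T cells and for activated CD4 T cells and Tregs over naive CD4 T cells, as CPM (red circles) and as UMIs per cell (grey squares), with 95% intervals; the solid line is 1 and the dotted line 0.5. In activated CD8 T cells Foxo1 moves to 1.02 on the scale per cell while S1pr1 stays at 0.0642.

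The pooled contrast sets populations against each other: populations 1, 4 and 7 gave 641, 367 and 168 of the activated cells and 1, 0 and 0 of the naive ones. Over the 9 populations the Tcf7 level of activated CD8 T cells ran from 6.34 to 419 CPM with a median of 219, that of S1pr1 from 0.634 to 138 with a median of 30.9, and that of Id3 from 0 to 76.4 with a median of 4.68. In the 6 populations with at least 10 cells of both gates (85 activated and 639 naive cells), 6 of the 9 genes were counted as lower, against 5.1% of all genes: Lef1, Klf2, S1pr1, Il7r, Satb1 and Bach2. Tcf7 had 282 CPM in activated and 413 CPM in naive cells there, a ratio of 0.684 (0.590 to 0.789), and Id3 had 51.3 against 55.8 CPM, a ratio of 0.919 (0.634 to 1.31). S1pr1 was 4.35-fold lower, Klf2 6.91-fold, Lef1 2.65-fold, Satb1 2.90-fold and Bach2 2.50-fold, all smaller differences than over the 9 populations, and Il7r was 2.57-fold lower. The larger pooled values of Tcf7, Id3, S1pr1, Klf2 and Lef1 therefore rest on populations 1, 4 and 7, which hold almost no naive cells to compare with. Gate markers differed too over the 9 populations: activated cells had 63.1 to 4630 CPM of Gzmb (median 220) and 0 to 541 CPM of Pdcd1 (median 99.6), with 2836, 4630 and 2487 CPM of Gzmb in populations 1, 4 and 7 and 63.1 to 1373 in the others, and 53.7 to 939 CPM of the naive marker Ccr7 (median 419). Their part in the result was not tested.

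Within single populations Klf2 and Lef1 had ratios with intervals below 1 in all 6, and Tcf7 in 2 of 6. The Klf2 level in activated cells of populations 2, 3, 5, 6, 8 and 9 was 230, 199, 38.6, 275, 110 and 427 CPM, against 1412, 1169, 1329, 1219, 1710 and 1141 CPM in their naive cells. All 6 ratios lay between 0.029 and 0.374 with intervals below 1, and the same held for Lef1, between 0.189 and 0.648. For Tcf7 the activated cells of those populations had 416, 262, 177, 344, 219 and 419 CPM, against 492, 347, 453, 365, 429 and 444 CPM in naive cells. Each Tcf7 ratio was below 1 but only those of populations 5 and 8, 0.391 and 0.511, had an interval below 1, and activated and naive values overlap for Tcf7 and not for Klf2. The activated cells number only 10 to 18 in each of these populations.

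**Figure D3:**
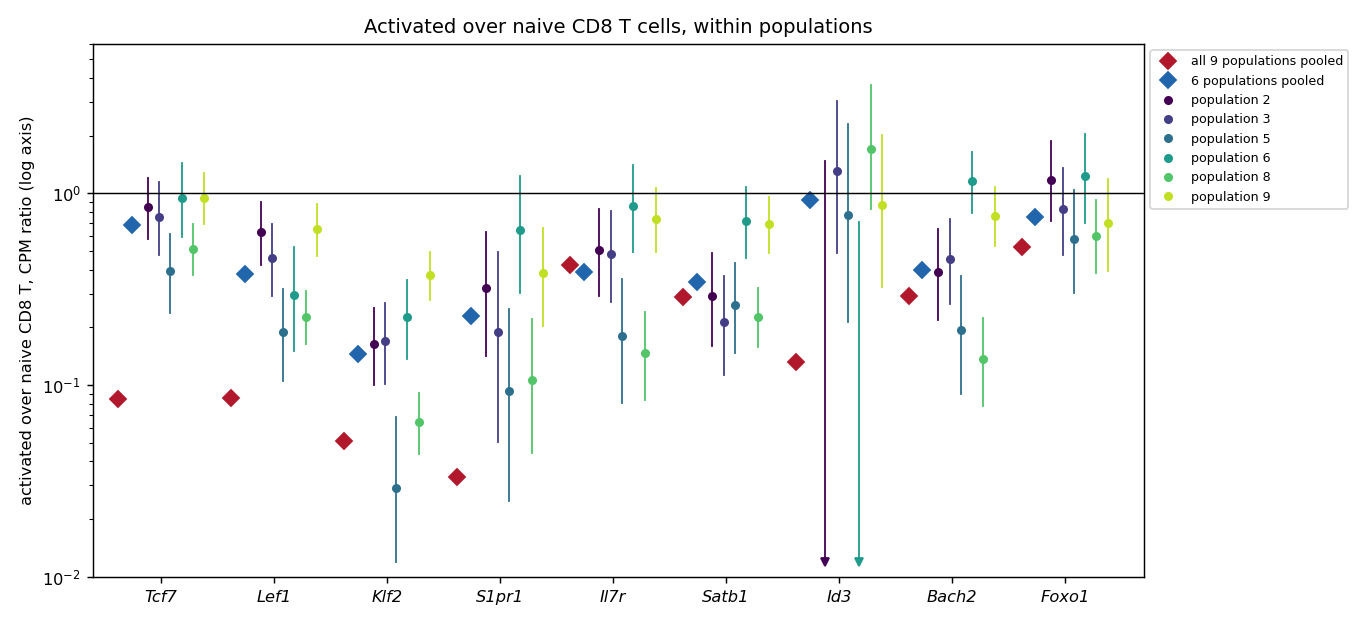
Ratio of each gene in activated over naive CD8 T cells (log axis): red diamonds pool all 9 populations, blue diamonds pool the 6 with at least 10 cells of both gates, and circles are those 6 one by one with 95% intervals (triangles at the bottom are activated cells with 0 UMIs, and the interval of Klf2 in population 5 is cut off at the bottom). Tcf7 lies at 0.0847 for all 9 populations and at 0.684 for the 6.

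Against memory-like CD8 T cells, again 8 of the 9 genes were counted as lower in activated cells pooled over populations, against 8.59% of all genes. Population 1 held 24 memory-like CD8 T cells, which gave 1 comparison inside a population rich in activated cells. Activated cells had 12.5 CPM Tcf7, 47.9 CPM Klf2, 5.79 CPM S1pr1 and 33.0 CPM Lef1 there. Memory-like cells of the same population had 293 CPM Tcf7, 1292 CPM Klf2, 110 CPM S1pr1 and 293 CPM Lef1, so the activated cells were 23.5-fold, 27.0-fold, 19.0-fold and 8.90-fold lower. Bach2 was 4.59-fold, Satb1 3.97-fold and Il7r 2.55-fold lower, Foxo1 had a ratio of 0.744 (0.439 to 1.37), and Id3, with 21 UMIs in activated and 9 in memory-like cells, was 17.7-fold lower. S1pr1, with 26 and 12 UMIs, and Id3 are under the 50 UMIs the rule asks for. The 24 memory-like cells stood apart from that gate in the other populations, with 632.5 CPM of Ikzf2 against 34.6 to 79.3 elsewhere, 348 CPM of the myeloid and NK cell gene Fcer1g against 36.1 to 56.7, 45.8 CPM of Dapl1 against 350 to 433 and 0 CPM of Igfbp4 against 163 to 262. The part of this in the differences was not tested.

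Activated CD8 T cells that still held a Tcf7 UMI were 109 of 1261 (8.64%), and other members were higher in them. They made up 3.90% of activated cells in population 1 (exact interval 2.54 to 5.70%), 7.08% in population 4 and 4.17% in population 7. Thinned to 1500 UMIs per cell, 4.50% of activated CD8 T cells had a Tcf7 UMI (3.42 to 5.81%), against 0.335% of myeloid cells, a type that lacks the gene, and 45.8% of naive CD8 T cells. Unthinned, the myeloid share was 2.03% and the naive one 73.3%. In population 1, the 25 cells with a Tcf7 UMI against the 616 without had 264 against 104 CPM of Bach2 (ratio 2.54, interval 1.80 to 3.48) and 75.4 against 31.4 CPM of Lef1 (2.40, 1.21 to 4.34). The coreceptor Slamf6, a marker of stem-like exhausted CD8 T cells, had 101 against 9.93 CPM (10.1, 5.33 to 18.4) there, and the cytotoxic protease gene Gzmb 1093 against 2900 CPM (0.377, 0.323 to 0.438).

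In population 4 the same split, 26 cells against 341, gave a ratio of 2.05 for Bach2 (1.44 to 2.86) and 0.230 for Gzmb (0.198 to 0.267). Slamf6 rested on 2 UMIs in the cells with Tcf7 there, with a ratio of 3.09 and an interval of 0.329 to 14.5, and the Lef1 ratio of 1.48 had an interval of 0.717 to 2.74. Id3 had 4 UMIs on each side and a ratio of 15.4 (2.88 to 82.9). Klf2 (1.90, 1.02 to 3.26) and Satb1 (1.58, 1.08 to 2.25) were also higher in population 1, while their intervals in population 4 hold 1. Xcl1, another gene of stem-like cells, had a ratio of 5.37 (2.87 to 9.43) in population 1 and 0.858 (0.599 to 1.19) in population 4. Higher Bach2 and lower Gzmb in Tcf7-positive activated cells were therefore measured in both populations, and higher Slamf6, Lef1, Klf2, Satb1 and Xcl1 in population 1. Il7r showed no such difference, with ratios of 1.28 (0.851 to 1.86) in population 1 and 0.664 (0.396 to 1.05) in population 4.

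Cycling cells, with at least 2 UMIs of Mki67 and Top2a, were 13.6% of activated CD8 T cells, and Klf2 was lower in them. In population 1 Klf2 had 15.3 CPM in the 83 cycling and 55.5 CPM in the 558 other cells, a ratio of 0.275 (0.144 to 0.481), in population 4 the ratio was 0.345 (0.168 to 0.635) and in population 7 it was 0.631 (0.387 to 0.999). Bach2 ratios were 0.637, 0.480 and 0.614 in populations 1, 4 and 7, all with intervals below 1. Foxo1 ratios were 1.18, 0.873 and 0.722 with intervals that hold 1. Lef1 was not lower, with ratios of 0.827 (0.511 to 1.29), 1.09 (0.668 to 1.71) and 3.00 (1.44 to 6.48), the last from 22 and 13 UMIs. Cycling cells were deeper, with a median of 10287 UMIs against 6236 in the others.

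Memory-like and naive CD8 T cells hardly differed in these genes. None of the 9 passed the rule in either direction, against 0.301% of all genes lower and 1.4% higher, and the members' median log2 ratio was -0.15 beside -0.03 over all genes. The ratios ran from 0.801 for S1pr1 (0.733 to 0.875) to 1.07 for Il7r (0.997 to 1.16), with Tcf7 at 0.902. With Nkg7 left out of the memory markers, a choice made after seeing the data, the 698 memory-like cells stood further from the 1675 naive cells: S1pr1 had 168 against 245 CPM (ratio 0.684), Lef1 433 against 604 CPM (0.716) and Klf2 976 against 1303 CPM (0.749), while Tcf7 stayed at 0.927. No member passed the rule there either, though Eomes, a factor of memory CD8 T cells that no gate used, had 56.4 against 12.7 CPM.

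Naive CD8 and naive CD4 T cells were also close, and none of the 9 passed the rule, against 1.25% of all genes lower and 1.18% higher. Naive CD8 T cells had 260 CPM S1pr1 against 360 in naive CD4 T cells (ratio 0.722), 208 against 283 CPM Foxo1 (0.733) and 608 against 766 CPM Lef1 (0.794). Klf2 had 1289 against 1257 CPM, a ratio of 1.02 (0.982 to 1.07), and Id3 56.2 against 55.5 CPM. These small differences in S1pr1, Foxo1 and Lef1 had intervals below 1 but stayed within 2-fold.

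Activated CD4 T cells kept Tcf7 and had less of 5 other members. Against naive CD4 T cells, Klf2 had 462 against 1257 CPM (2.72-fold lower), Lef1 304 against 766 CPM (2.52-fold), Satb1 284 against 682 CPM (2.40-fold), S1pr1 156 against 360 CPM (2.31-fold) and Il7r 196 against 393 CPM (2.00-fold, at the limit of the rule). Over all 8478 genes measured, 1.55% were counted as lower, and no member was counted as higher, against 8.69%. The median log2 ratio was -1.003 for the members and 0.19 for all genes. Tcf7 had 428 against 477 CPM (ratio 0.897), Id3 46.5 against 55.5, Bach2 280 against 480 (0.583) and Foxo1 223 against 283. Per cell only Klf2 stayed at or below 0.5, at 0.498, against 0.472% of all genes, and with activated cells defined by at least 2 marker UMIs no member was counted. The activated CD4 gate had no Foxp3 UMI by rule but held other Treg markers, with Ikzf2, Il2ra and Ctla4 summing to 1006 CPM against 108 in naive cells and 2945 in Tregs, and their part in the result was not tested.

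Over the 7 populations with at least 20 activated CD4 T cells, Tcf7 ran from 25.3 CPM in population 4 through a median of 394 to 583 CPM in population 2. In the 6 populations with both gates its ratio to naive CD4 T cells was 0.696 to 1.12, whereas that of Klf2 was 0.230 to 0.718 and that of Lef1 0.325 to 0.665, below 1 in each. Population 4, with 20 activated and 2 naive CD4 T cells, also had the highest Il7r level of the 7, 467 CPM, against 106 to 299 CPM in the others.

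Part of the activated CD4 T cells carried a UMI of Cxcr5, the receptor that takes follicular helper cells to B cell follicles. Pooled over populations, these cells had more Tcf7 and Id3 and less Klf2, S1pr1, Il7r and Satb1 than the other activated cells. The 48 cells with Cxcr5, against the 343 without, with median depths of 6034 and 4593 UMIs, had 632 against 391 CPM of Tcf7 (ratio 1.62, interval 1.38 to 1.88). Klf2 had 114 against 525 CPM (0.217, 0.154 to 0.299), S1pr1 26.3 against 179 CPM (0.147, 0.0666 to 0.282), Il7r 35.1 against 225 CPM (0.156, 0.0799 to 0.275) and Satb1 84.8 against 320 CPM (0.265, 0.176 to 0.385). Bcl6, the master regulator of follicular helper cells, which the split did not use, had 231 against 43.2 CPM (5.34, 3.87 to 7.37). Id3 had 73.1 against 41.7 CPM (1.76, 1.07 to 2.78), and Foxo1 had a ratio of 0.981 (0.757 to 1.26). The proliferation gene Mki67 had 281 against 113 CPM and was not used by the split, and its part in these values was not tested.

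The lower levels of Klf2, S1pr1, Il7r and Satb1 held within populations 2, 5 and 8, which had 17, 15 and 10 cells with Cxcr5. The ratios of Klf2 there were 0.134, 0.244 and 0.113, those of Il7r 0.306, 0.0627 and 0.109, and those of Satb1 0.341, 0.191 and 0.0434, with every interval below 1. S1pr1 ratios were 0.172, 0.065 and 0.096, also with intervals below 1, the first from 3 UMIs in the cells with Cxcr5. The S1pr1 and Il7r ratios of populations 5 and 8, and the Satb1 ratio of population 8, rest on 1 UMI in those cells. Bach2 ratios were 0.606 (0.306 to 1.11), 0.123 and 0.167, and Lef1 ratios 0.530, 0.557 and 0.469. Tcf7 was less even, at 1.07 (0.801 to 1.42), 1.91 (1.42 to 2.58) and 1.16 (0.821 to 1.61). Id3 ratios were 1.84 (0.660 to 4.78), 3.21 (1.30 to 8.04) and 0.642 (0.0712 to 2.76), the last from 2 UMIs in the cells with Cxcr5. Higher Tcf7 and Id3 thus had an interval above 1 only in population 5.

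**Figure D4:**
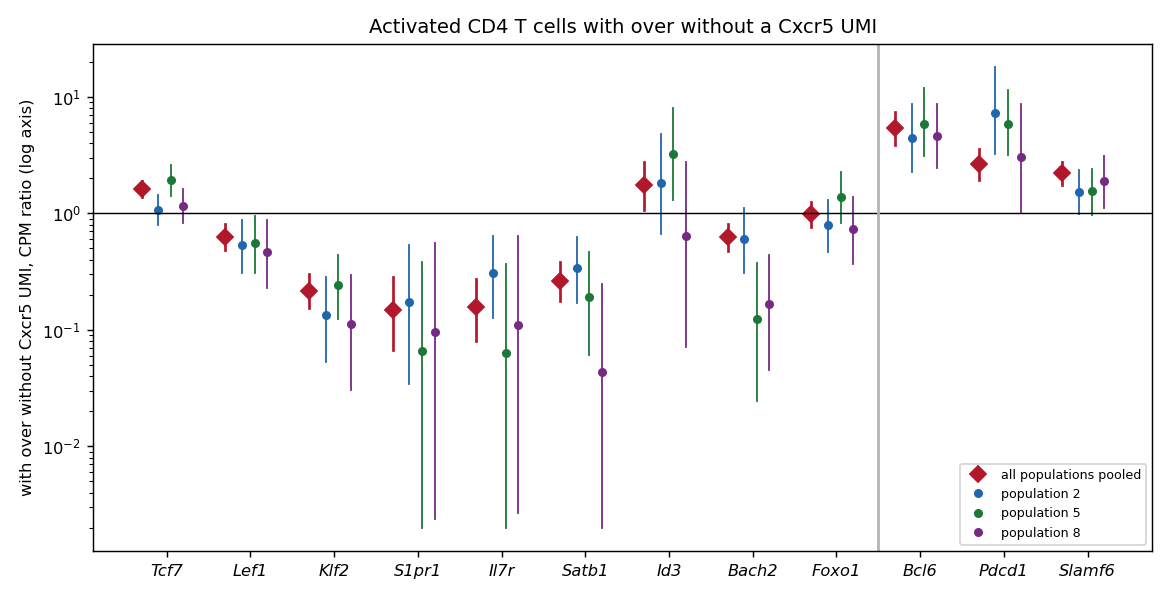
Ratio of each gene (log axis) in activated CD4 T cells with over those without a Cxcr5 UMI, pooled (red diamonds, 48 over 343 cells) and within populations 2, 5 and 8, with 95% intervals cut off at the bottom for 3 of them; genes right of the grey line are not among the 9. Klf2, S1pr1, Il7r and Satb1 lie below 1 in all, and Tcf7 at 1.07 to 1.91.

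Tregs had less of 7 of the 9 genes than naive CD4 T cells, against 4.68% of all genes, with a median log2 ratio of -1.75 for the members and 0.22 for all genes. Lef1 had 166 against 766 CPM (4.62-fold lower), Tcf7 114 against 477 CPM (4.18-fold), S1pr1 102 against 360 CPM (3.52-fold), Bach2 139 against 480 CPM (3.46-fold), Klf2 374 against 1257 CPM (3.36-fold), Satb1 209 against 682 CPM (3.27-fold) and Il7r 157 against 393 CPM (2.51-fold). Id3 at 53.8 against 55.5 CPM and Foxo1 at 246 against 283 CPM were not counted. All 7 were below 1 in each of the 5 populations with both gates, with Tcf7 ratios of 0.198 to 0.470 and Lef1 ratios of 0.203 to 0.348. Per cell, Tcf7, Lef1 and S1pr1 were counted as lower (background 1.24%), since Tregs held a mean of 7317 UMIs against 4226 in naive cells.

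Treg levels differed widely between populations. In populations 1, 2, 3, 4, 6, 8 and 9, with 21 to 34 Tregs each, Tcf7 had 0, 135, 227, 0, 165, 98.6 and 105 CPM, and Klf2 had 67.0, 833, 419, 69.4, 659, 439 and 320 CPM. For Tcf7, 0 UMIs allow up to 15.5 CPM in population 1 and 29.7 CPM in population 4. Il7r went the other way, with 247 and 396 CPM in populations 1 and 4, against 57.9 to 203 CPM in the other 5. Id3 in population 4, at 109 CPM, came from 2 cells, 1 of which held 10 of the 11 UMIs, and Bach2 in population 1 came from 1 cell with all 8 UMIs. Tregs of population 4 also had 4370 CPM of the antigen presentation gene Cd74, against 275 to 753 CPM in the other 6. The myeloid and NK cell gene Fcer1g had 367 CPM there, against 8.97 to 46.4 CPM in the other 6. The part of these in the values was not tested.

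Among Tregs, the 176 with at least 3 activation UMIs set against the 33 resting ones, with at most 2 and a UMI of a naive T cell marker, had less of 6 members, against 4.31% of all genes. Bach2 had 84.0 against 672 CPM (8.00-fold lower, interval of the ratio 0.0942 to 0.166), Klf2 241 against 1784 CPM (7.40-fold), Satb1 153 against 799 CPM (5.22-fold), Lef1 131 against 515 CPM (3.94-fold), S1pr1 84.0 against 299 CPM (3.56-fold) and Tcf7 93.9 against 329 CPM (3.50-fold). Foxo1 had 239 against 217 CPM and Il7r 147 against 246 CPM (ratio 0.598). With gates read from counts thinned to 1500 UMIs, 1 member was counted as lower in place of 6. No population held 20 resting Tregs. Populations 1, 4 and 7 gave 34, 21 and 9 of the activated Tregs and 0 of the resting ones, so this contrast crosses populations. Activated Tregs held a mean of 7986 UMIs, against 4059 in resting ones.

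NK cells had less of 8 members than naive CD8 T cells, against 6.52% of all genes, and Bach2, with a ratio of 0.631 (0.574 to 0.693), was the one not counted. S1pr1 had 5.53 against 260 CPM (47.0-fold lower), Id3 1.38 against 56.2 CPM (40.6-fold, from 4 UMIs), Lef1 62.2 against 608 CPM (9.77-fold) and Il7r 43.2 against 354 CPM (8.20-fold). The members' median log2 ratio was -2.44, beside 0.10 over all genes. Per cell 6 were lower, against 2.34% of all genes, since Satb1 (0.796) and Foxo1 (0.7001) lay above 0.5. Populations 1, 4 and 7, which hold almost no naive cells, gave 113, 199 and 88 of the 435 NK cells, so this contrast also crosses populations.

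Set against activated CD8 T cells of the same populations, NK cells kept more Tcf7, Klf2, Lef1 and Bach2 and less Il7r. Pooled, 3 members were higher (6.63% of all genes) and 2 lower (8.12%). In populations 1, 4 and 7 Tcf7 had 117, 94.5 and 58.8 CPM in NK cells, against 12.5, 13.7 and 6.34 CPM in activated CD8 T cells, ratios of 9.37, 6.90 and 9.28. Klf2 had 302, 160 and 324 CPM against 47.9, 60.5 and 62.7 CPM, and Bach2 252, 272 and 260 CPM against 110, 130 and 131 CPM. Lef1 had 64.9, 65.2 and 64.5 CPM against 33.0, 47.9 and 22.2 CPM, though its pooled ratio was 1.19 (0.999 to 1.42). Il7r had 50.5, 24.0 and 30.3 CPM in NK cells, against 144, 175 and 128 CPM in activated CD8 T cells. The values of NK and activated CD8 T cells do not overlap for Tcf7, Klf2, Lef1, Bach2 or Il7r. Satb1 ratios in these populations ran from 1.03 to 3.23 and Foxo1 ratios from 0.58 to 0.97. NK cells of population 7 also had 2196 CPM of Cd74, against 348 and 222 CPM in those of populations 1 and 4, and its part in the values was not tested. Without population 1 the pooled comparison counted 1 member as higher in place of 3.

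Tregs set against activated CD8 T cells gave other values pooled than within populations. Pooled, 6 members were higher (8.29% of all genes) and none lower (5.55%), among them Tcf7 at 114 against 35.0 CPM. Within populations 1 and 4, where both gates had at least 20 cells, Tregs had 0 and 0 CPM of Tcf7 against 12.5 and 13.7 CPM, with intervals of the ratio that hold 1. There Lef1 had ratios of 1.25 (0.531 to 2.53) and 0.620 (0.126 to 1.86) and Klf2 1.40 (0.734 to 2.45) and 1.15 (0.454 to 2.42). Il7r was higher in Tregs of both, with 247 and 396 CPM against 144 and 175 CPM, and Bach2 lower, with 41.2 and 9.91 CPM against 110 and 130 CPM, from 8 and 1 UMIs.

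A small gate of 20 T cells with no Cd4, Cd8a or Cd8b1 UMI and a UMI of Sox13 or Cd163l1 stood out for Il7r. They had 971 CPM of Il7r against 354 CPM in naive CD8 T cells, 2.74-fold higher (2.18 to 3.41), and 1 member of 9 was counted as higher against 8.01% of all genes. Lef1 at 119 CPM, Klf2 at 378, S1pr1 at 86.3 and Satb1 at 237 CPM were counted as lower (4 of 9, against 2.3% of all genes), and Tcf7 had 270 CPM (ratio 0.653, 0.421 to 0.970). With gates read from thinned counts the Il7r call was lost.

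B cells shared only part of the program. Against naive CD4 T cells, Tcf7 had 4.71 against 477 CPM (101-fold lower), Lef1 10.97 against 766 CPM (69.8-fold), Il7r 6.81 against 393 CPM (57.7-fold) and S1pr1 74.3 against 360 CPM (4.85-fold), and these 4 were counted as lower, against 8.25% of all genes. Klf2 had 1238 against 1257 CPM (ratio 0.985, 0.957 to 1.01), Foxo1 287 against 283 CPM (1.01), Bach2 671 against 480 CPM (1.40, 1.34 to 1.46) and Id3 106 against 55.5 CPM (1.91, 1.68 to 2.17). Over the 6 populations with both gates the Bach2 ratio was 1.24 to 1.54 and that of Id3 1.40 to 3.55, above 1 in each. Thinned to 1500 UMIs, 0.738% of B cells had a Tcf7 UMI (0.536 to 0.989%), against 0.335% of myeloid cells (0.161 to 0.615%), with median depths of 3020 and 12777 UMIs before thinning.

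Counted cell by cell at 1500 UMIs, most activated CD8 T cells held 1 or none of the 9 genes. Activated CD8 T cells held a UMI of 0.989 of the 9 genes on average and 40.1% held none, and NK cells held 1.37 with 25.1% none. Tregs held 1.83, B cells 2.31 and activated CD4 T cells 2.57, against 3.77 in naive CD8 and 4.09 in naive CD4 T cells, of which 1.12% and 0.364% held none. At least 3 of the 9 were seen in 8.52% of activated CD8 and 45.0% of activated CD4 T cells, against 82.2% of naive CD8 and 86.0% of naive CD4 T cells. Memory-like CD8 T cells, at 3.54 genes and 75.2%, lay close to naive cells.

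**Figure D5:**
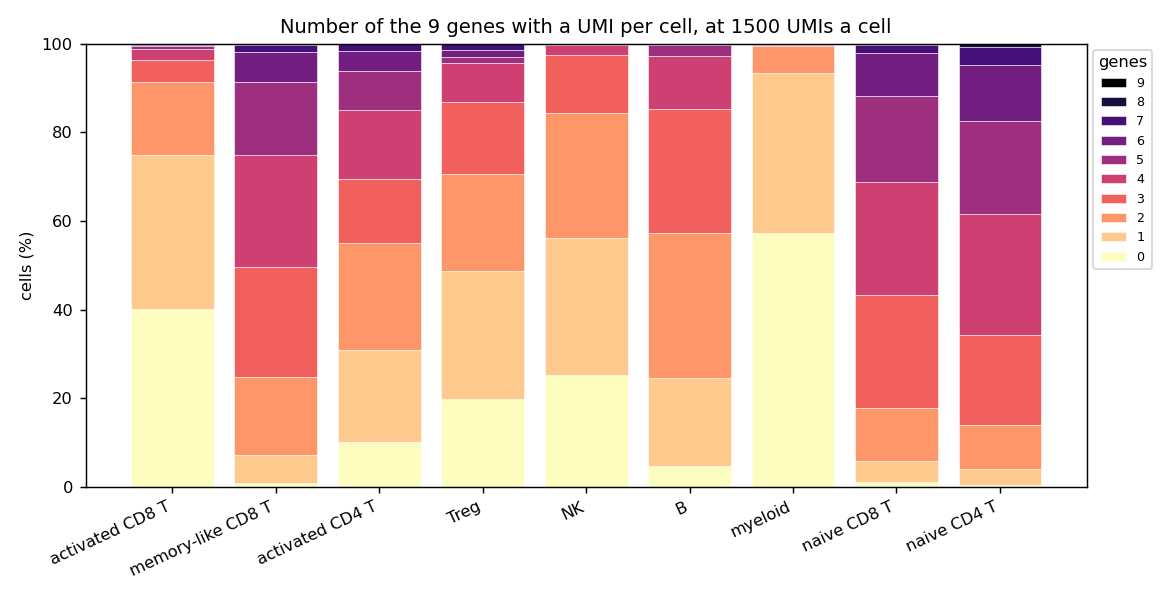
Share of cells (%) by the number of the 9 genes with at least 1 UMI, after thinning each cell to 1500 UMIs, in 9 gates; darker bands are more genes. Cells with none of the 9 make up 40.1% of activated CD8 T cells and 1.12% of naive CD8 T cells.

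Over 45 units, each the cells of 1 gate in 1 population with at least 20 cells, from 8 gates without the myeloid one, the genes fell into looser and tighter pairs. Tcf7 was most like Lef1 among 6289 genes (Pearson r of log2 (CPM + 10), 0.947), followed by Nsg2 (0.937) and St8sia1 (0.915). S1pr1 was most like Ccr7, the lymph node homing receptor (0.932), and Klf2 most like Fam65b (0.929) and Rasgrp2 (0.917). Il7r was most like Slfn1 (0.934), Arl4c (0.933) and Fam189b (0.914), Id3 like Rassf2 (0.799), Foxo1 like Ccm2 (0.857), Satb1 like the ribosomal protein gene Rps24 (0.878) and Bach2 like Rps27 (0.856) and Klf2 (0.839). Klf2 and Satb1 had r of 0.830 and Klf2 and S1pr1 0.825, while Klf2 and Il7r had 0.0728 and Il7r and Bach2 -0.182. These values describe units that share libraries and gates, and carry no p.

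Other genes of the same pathways, in lists written from general knowledge of them, differed by list in activated against naive CD8 T cells. Of 14 quiescence genes 8 were lower and none higher, among them Igfbp4 (5.88 against 244 CPM, 41.5-fold lower), Klf3 (10.3 against 194 CPM, 18.9-fold) and Pik3ip1, an inhibitor of PI3 kinase (8.09 against 143 CPM, 17.7-fold). Of 10 effector regulators 6 were higher and none lower, against 16.6% of all genes higher, among them Tbx21, which encodes T-bet (194 against 2.01 CPM), Bhlhe40 (791 against 25.7 CPM), Prdm1, which BACH2 represses (55.3 against 3.21 CPM) and Id2, the counterpart of Id3 (916 against 121 CPM). Of the 5 stem-like genes measured, Slamf6 (24.5 against 75.1 CPM) and Myb (13.7 against 38.9 CPM) were lower and Xcl1 (141 against 9.23 CPM) and Eomes (17.0 against 7.23 CPM) higher. Among 9 genes of IL-7 signalling 2 were higher, a share near that of all genes, the feedback inhibitor Cish (151 against 4.42 CPM) and the kinase gene Jak3 (154 against 49.0 CPM), and none was lower. Of the TCF and LEF partners the corepressor genes Tle1 (3.47 against 12.04 CPM) and Tle4 (47.9 against 128 CPM) were lower of 4 measured, and of the FOXO and AKT list only Foxo3 of 6 (16.3 against 44.2 CPM), beside 8.21% of all genes lower.

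The same lists were read in CD4 T cells. In activated against naive CD4 T cells 5 of 14 quiescence genes were lower, against 1.55% of all genes, with Igfbp4 at 203 against 651 CPM and Txnip at 339 against 989 CPM. Higher were 9 of 9 measured effector regulators and 4 of 4 measured stem-like genes, against 8.69% of all genes. Of the stem-like list, the follicular helper genes Cxcr5 and Bcl6 had 37.98 against 2.77 CPM and 71.9 against 21.9 CPM, and Slamf6 had 165 against 63.0 CPM. Tregs against naive CD4 T cells had 7 of 14 quiescence genes lower, against 4.68% of all genes, with Dapl1 at 3.24 against 225 CPM. In Tregs 8 of 10 effector regulators were higher, against 14.1% of all genes, with Maf at 192 against 5.53 CPM. Of the TCF and LEF partners Tle1 (3.24 against 11.1 CPM) and Tle4 (51.8 against 130 CPM) were lower in Tregs too, while none of 4 measured was counted in activated CD4 T cells.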

How the data were processed

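Live CD45+ cells of 9 mouse and site combinations were pooled and profiled by 10x 5′ HT single-cell sequencing, per the labels' protocols. What the authors deposited is a matrix of raw UMI counts, 1 value per gene and cell, unscaled. Cell Ranger 8.0.1 is named in the submitters' processing notes and mm10-1.2.0 in the design text, and no source used here says whether intronic reads entered the counts. The 4 gene expression libraries were deposited as 1 table, so barcodes shared between them could not be counted. Of 21624 barcodes, 93 were under 500 UMIs, under 200 genes or over 20% mitochondrial and were removed. Scrublet in scanpy 1.11.5 (expected rate 8%) called 184 doublets (0.855%), which were left out. A cell was given to the hashtag whose count was at least 3 times the next, and 258 cells had none. The labels name the tags TotalSeq-C and the table TotalSeq-B.

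UMIs were summed over the cells of a gate, with numpy 2.4.6, scipy 1.17.1 and pandas 2.3.3, and figures drawn with matplotlib 3.10.9. Levels have exact Poisson intervals, ratios exact conditional binomial and shares exact Clopper-Pearson ones, all 95%, and molecules of 1 cell are not independent samples. A count of 0 was taken to allow 3 counts. A gene was measured with at least 50 UMIs over both gates and counted with a ratio of at least 2 or at most 0.5 and an interval without 1. The calling step was tested on simulated data with counting error only. That test held no variation between cells or populations, so it cannot show how calls behave under such variation. Populations enter with at least 20 cells of a gate, or 10 where stated. Ratios between gates read from 1 pool share their libraries, and several comparisons share the naive cells. The 9 genes and all lists were chosen with earlier results of these data known. Named genes are the 9, up to 4 of largest ratio in each list, and the 3 most like each member; Eomes, Slamf6, Gzmb, Bcl6 and Cd74 were named as markers beside them. A planned gate on Trdc, which was not used here, was replaced by Sox13 or Cd163l1. Alternatives tried were UMIs per cell, thinned gates, other marker limits, other hashtag limits and leaving out each population. Some of the marker genes behind the gates are not reported here.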

Additional observations from a re-analysis of the deposited data

How the results depend on the processing

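Of 530 counts of members under the alternatives, 519 stayed within 1.5 times the value reported and none reversed. With UMIs per cell in place of CPM the members counted as lower were 5 in activated CD8 T cells, 1 in activated CD4 T cells and 3 in Tregs, in place of 8, 5 and 7, and 1 was higher in activated against resting Tregs in place of 0. With gates read from counts thinned to 1500 UMIs, 1 member was lower in activated against resting Tregs in place of 6, 0 were higher in the Sox13 or Cd163l1 gate in place of 1, and 1 was lower in NK against activated CD8 T cells in place of 2. With at least 2 activation UMIs in place of 3, 0 were lower in activated CD4 T cells in place of 5, and 1 was higher in NK against activated CD8 T cells in place of 3. Leaving out each population in turn gave 1 to 4 higher in NK against activated CD8 T cells, with 1 without population 1, and 0 to 1 higher in B cells, with 1 without population 3. Why these counts moved was not tested. Of 2374 single ratios 338 moved by more than their interval and none that was counted changed direction. No paired analysis was possible because the populations are unassigned and cannot serve as replicates in a test, so gates of 1 population were only set side by side. Depth limits single populations, where activated CD8 T cells held 0 to 23 UMIs of Id3 and 1 to 26 of S1pr1.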

Other observations

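The Tcf7 levels of activated CD8 T cells in the 9 populations fell into separate clusters. In populations 1, 4 and 7 they were 12.5, 13.7 and 6.34 CPM, and in populations 2, 3, 5, 6, 8 and 9 they were 416, 262, 177, 344, 219 and 419 CPM. S1pr1 showed the same split, with 5.79, 2.28 and 0.634 CPM in populations 1, 4 and 7, against 98.6, 41.9, 30.9, 138, 26.6 and 109 CPM in populations 2, 3, 5, 6, 8 and 9. Cells with a Tcf7 UMI numbered 25 of 641, 26 of 367 and 7 of 168 in populations 1, 4 and 7, and 8 of 15, 9 of 13, 5 of 10, 7 of 12, 10 of 17 and 12 of 18 in populations 2, 3, 5, 6, 8 and 9. Which mouse and site these populations are is not given by the labels, so they are listed as values, with no test between them. Gzmb, a marker of the activated gate, had 2836, 132, 147, 4630, 1373, 220, 2487, 63.1 and 132 CPM in populations 1 to 9.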
